A study of Mus musculus with 21 samples.

Results

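Mbd2, Myc and 8 genes of glucose metabolism (Slc2a1, Hk2, Aldoa, Pgk1, Eno1, Pkm, Ldha and Pdk1) were followed by RNA-seq in mouse embryonic stem (ES) cells. The cells had Trim71 or Ago2 edited, were transfected with a peptide that occupies Argonaute proteins, or served as controls. The 10 genes were taken by their symbols from a table of 22512 genes, and each symbol matched a single row. All 10 passed the filter on low counts in both experiments. The labels place 7 groups of 3 libraries in 2 experiments. Every group derives from 129S6/SvEvTac ES cells that carry the reporter GFP_5xT71BS and stably express FLAG-Cas9, and all were grown with serum and LIF on gelatin. Experiment 1 compared this untransfected parental line (W) with Trim71-/- cells (Trim71KO) and Ago2-/- cells (Ago2KO). Experiment 2 compared cells transfected with pCIP FH-T6B_WT::mCherry (T6B_WT) with cells transfected with the mutant form pCIP FH-T6B_MUT::mCherry (T6B_MUT). It also held Trim71-/- and Ago2-/- cells that received the empty plasmid (Trim71KO_empty, Ago2KO_empty). Against T6B_MUT these last groups differ in genotype and in plasmid together. The labels do not say whether each edited line is 1 clone. The series text calls the replicates biological.

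Argonaute proteins, AGO2 among them, are guided to target mRNAs by the microRNAs they hold. TNRC6 (GW182) proteins bind Argonaute and recruit the machinery that shortens poly(A) tails and silences the target. T6B is a peptide from TNRC6B that occupies Argonaute and so keeps TNRC6 proteins away, and the mutant peptide serves as its control. TRIM71 binds mRNAs through a hairpin that it recognises and lowers their expression in ES cells. MBD2 binds methylated DNA and recruits the NuRD repressor complex. In ES cells Mbd2 is known as a target of the miR-290 and miR-302 clusters and as a brake on Myc, the transcription factor that promotes growth, ribosome production and glycolysis.

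Several microRNAs of both clusters share a seed, the stretch from base 2 to base 8 that pairs with the target. The 5 mature sequences with the seed AAGUGCU in the RefSeq table (GRCm38.p6) are shown because Mbd2 carries its match. Capitals mark the seed.
mmu-miR-291a-3p: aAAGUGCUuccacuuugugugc
mmu-miR-294-3p: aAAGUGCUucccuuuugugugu
mmu-miR-295-3p: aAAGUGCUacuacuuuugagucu
mmu-miR-302b-3p: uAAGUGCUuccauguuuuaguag
mmu-miR-302d-3p: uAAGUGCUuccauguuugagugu
The first 3 lie on chromosome 7 and the other two on chromosome 3. The letters that pair with the seed, AGCACUU, were searched on the transcript strand in the longest annotated 3′ UTR of each gene in GENCODE M21. Mbd2 held 1 match, which starts at base 289 of a UTR of 480 bases and is followed by an A. Ldha held 1 match, not followed by an A, which starts at base 18 of a UTR of 486 bases. It is shown with capitals on the match.
Ldha: cccgtgtcctAGCACTTcactgt
The other 8 members held none. At least 1 match was found in 16.73% of the 14913 genes with such a UTR. These matches are letters in an annotation, and binding was not measured.

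The promoters of the glycolysis members were searched on both strands for the E-box CACGTG, the letters that MYC with MAX binds, and for ACGTG, the core of the hypoxia response element, which also lies inside every E-box. Each RefSeq window runs from 250 bases before to 50 after an annotated start, and the 8 glycolysis members had at least 1 window each. Of 32851 windows of this length in the whole table, 7.15% held an E-box and 19.6% the core. Among these members only Ldha held an E-box. Its first promoter, chr7:46845554-46845853 on the plus strand, has 2, in capitals, which begin at positions -145 and -48 relative to the start.
Ldha: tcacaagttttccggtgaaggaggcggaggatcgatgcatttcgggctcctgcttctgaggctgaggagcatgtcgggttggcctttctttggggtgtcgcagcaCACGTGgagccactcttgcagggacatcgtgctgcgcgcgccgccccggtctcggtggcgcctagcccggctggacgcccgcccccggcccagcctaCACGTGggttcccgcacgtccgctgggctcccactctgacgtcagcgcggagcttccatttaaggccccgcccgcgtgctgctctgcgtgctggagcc
The Pgk1 promoter, chrX:106186850-106187149 on the plus strand, holds the core 2 times outside any E-box, at -150 and -131 relative to the start. It holds no E-box and is shown with the cores in capitals. Outside an E-box the core also occurs in windows of Ldha, Hk2, Slc2a1, Pkm and Aldoa, and not in those of Pdk1 and Eno1. The one in the Ldha window above, at -34, is left in lower case.
Pgk1: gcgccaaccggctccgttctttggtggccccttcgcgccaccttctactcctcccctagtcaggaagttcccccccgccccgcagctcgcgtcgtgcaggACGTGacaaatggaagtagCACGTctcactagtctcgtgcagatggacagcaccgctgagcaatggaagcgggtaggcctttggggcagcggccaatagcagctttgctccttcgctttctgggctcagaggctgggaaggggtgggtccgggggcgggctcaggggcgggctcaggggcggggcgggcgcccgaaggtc

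Levels below are CPM, each gene's counts scaled to a fixed library total, on library sizes scaled by the trimmed mean of M-values (TMM), a method that equalises libraries on the bulk of their genes. A gene was called when the quasi-likelihood F test of edgeR gave an adjusted p under 0.05 after Benjamini-Hochberg adjustment over all genes tested, and every adjusted p below is of this kind unless another tool is named. The experiments were scaled and fitted separately, so a level in one is set beside a level in the other without a test. Libraries held 29561125 to 57872324 counts. ES cell markers were high throughout, at a summed 5167 to 6399 CPM over 10 genes. Markers of primitive endoderm, an early lineage that arises beside ES-like cells, differed between groups. Their 8 genes summed to 51.5 to 52.6 CPM in W, 6.95 to 7.30 in Trim71KO and 12.5 to 14.5 in Ago2KO. In Experiment 2 they summed to 31.3 to 31.8 CPM in T6B_MUT, 25.3 to 28.5 in T6B_WT, 10.7 to 12.5 in Trim71KO_empty and 18.7 to 27.9 in Ago2KO_empty. Neural markers summed to 110 to 124 CPM in W, 130 to 157 in Trim71KO and 142 to 155 in Ago2KO. Their sums in Experiment 2 were 100 to 108 CPM in T6B_MUT, 131 to 140 in T6B_WT, 87.7 to 104 in Trim71KO_empty and 107 to 117 in Ago2KO_empty. A sum can hide opposite moves, and in Trim71KO 2 neural genes were called higher and 2 lower. Of the ES cell markers, 6 were called higher and 2 lower in Trim71KO, and 5 higher and 2 lower in Trim71KO_empty. Of the primitive endoderm markers, 1 was called higher and 6 lower in Trim71KO_empty. Mesoderm markers summed to 7.67 to 8.30 CPM in W, 5.92 to 7.30 in Trim71KO and 13.6 to 15.9 in Ago2KO. Their sums in Experiment 2 were 5.99 to 6.79 CPM in T6B_MUT, 9.99 to 10.9 in T6B_WT, 7.87 to 9.90 in Trim71KO_empty and 9.69 to 12.4 in Ago2KO_empty. Of the 5 mesoderm genes summed, 3 lay under 1 CPM in every library, so the sums rest on few genes. In Ago2KO 2 of the 5 were called higher and none lower, and in Trim71KO 1 was higher and 2 were lower. ES cell markers summed to 5167 to 5397 CPM in W, 6096 to 6399 in Trim71KO and 5459 to 5556 in Ago2KO. Their sums in Experiment 2 were 5356 to 5452 CPM in T6B_MUT, 5308 to 5493 in T6B_WT, 6137 to 6249 in Trim71KO_empty and 5181 to 5550 in Ago2KO_empty. The part of these shifts in the values below was not tested, and in bulk RNA fewer cells of a type and less RNA per cell cannot be told apart.

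The edited genes were read first. Ago2 had 6312 to 7404 counts in W and 1286 to 2037 in Ago2KO, and its level fell by 1.76 in log2 units (adjusted p 1.3e-09, SE 0.07). In Experiment 2 Ago2 had 5775 to 6444 counts in T6B_MUT and 3564, 6085 and 1756 in the libraries labelled Ago2KO_empty 1, 2 and 3. In CPM these were 112 to 143 in T6B_MUT and 87.4, 167 and 45.6 in Ago2KO_empty, and the group's log2 fold change of -0.30 was not called (SE 0.38, adjusted p 0.601). The library labelled Ago2KO_empty 2 was therefore not low in Ago2, the one labelled Ago2KO_empty 1 only partly so, and results of that group are given without it where it matters. Trim71 transcript fell by 0.50 in Trim71KO (SE 0.05, adjusted p 1.55e-06) and by 0.29 in Trim71KO_empty (SE 0.08, adjusted p 0.0117), so most of it remained. An edit can remove a protein and leave its transcript, so these counts do not check the Trim71 labels.

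Mbd2 rose in Ago2KO, T6B_WT and Ago2KO_empty and was not called in either Trim71-/- group. It is a gene of chromosome 18 that shares no 50-base word with another annotated gene, nor do Myc, Hk2, Slc2a1 and Pdk1. In Experiment 1 it measured 16.6, 16.5 and 15.3 CPM in W, 20.5, 20.1 and 21.4 in Ago2KO, and 16.1, 16.1 and 14.8 in Trim71KO. All Ago2KO libraries lay above all W libraries, and the Trim71KO libraries overlapped W. In log2 units the rise in Ago2KO was 0.36, or 28.5% (SE 0.07, adjusted p 0.00153). The value in Trim71KO was -0.04 (SE 0.07, adjusted p 0.663). Compared directly, Mbd2 was lower in Trim71KO than in Ago2KO by 0.41 (log2 fold change -0.41, SE 0.07, adjusted p 0.000254).

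In Experiment 2 Mbd2 measured 17.7, 18.4 and 19.7 CPM in T6B_MUT, 25.8, 26.4 and 25.7 in T6B_WT, 26.8, 24.5 and 25.6 in Ago2KO_empty, and 21.2, 20.8 and 20.2 in Trim71KO_empty. T6B_WT and Ago2KO_empty lay together above every other library, and Trim71KO_empty stood between them and the control without overlap. The rise was 0.48 with T6B_WT, or 39.6% (SE 0.07, adjusted p 0.000106), and 0.46 in Ago2KO_empty, or 37.8% (SE 0.07, adjusted p 0.000104). The library labelled Ago2KO_empty 2, which was not low in Ago2, had Mbd2 at 24.5 CPM, also above every T6B_MUT library. Without the library labelled Ago2KO_empty 2 the rise in that group was 0.48 (SE 0.08, adjusted p 0.000131). The value in Trim71KO_empty was 0.16 (SE 0.07, adjusted p 0.109), and Mbd2 there was lower than in Ago2KO_empty (log2 fold change -0.31, SE 0.07, adjusted p 0.0026). T6B_WT and Ago2KO_empty share the T6B_MUT libraries as control, and both knockouts of Experiment 1 share W.

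**Figure D1:**
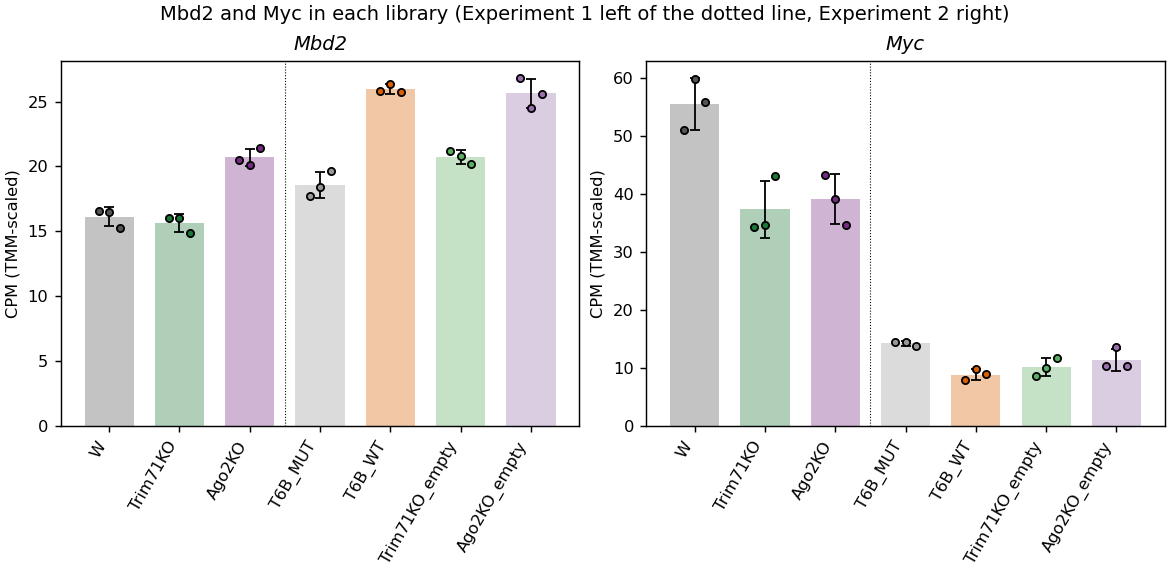
Mbd2 and Myc in CPM on TMM-scaled library sizes (vertical axis, from 0) in the 7 groups (horizontal axis). Points are libraries, bars the mean and error bars the SD of 3 libraries; Mbd2 is high in Ago2KO, T6B_WT and Ago2KO_empty, and Myc is highest in the control of each experiment.

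Myc was lower than the control in all 5 comparisons, and the fall was called in 4 of them. The gene lies at chr15:61985391-61990374 on the plus strand of GRCm38. In Experiment 1 it measured 51.0, 59.8 and 55.8 CPM in W, 34.4, 34.7 and 43.1 in Trim71KO, and 43.3, 39.2 and 34.7 in Ago2KO. No knockout library reached the lowest W library. Myc fell by 0.57 in Trim71KO, a change of -32.6% (SE 0.10, adjusted p 0.00109), and by 0.51 in Ago2KO (SE 0.10, adjusted p 0.00447). The knockouts themselves differed by -0.06 (SE 0.10, adjusted p 0.693), so the Myc values do not separate the genotypes as those of Mbd2 do.

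Myc was a much rarer transcript in Experiment 2, at 14.5, 14.4 and 13.8 CPM in T6B_MUT. It measured 7.91, 9.81 and 8.92 CPM in T6B_WT, 8.69, 9.99 and 11.7 in Trim71KO_empty, and 10.3, 13.7 and 10.4 in Ago2KO_empty. Each of these libraries lay below the lowest T6B_MUT library, by little for the one labelled Ago2KO_empty 2. Myc fell by 0.68 with T6B_WT (SE 0.12, adjusted p 0.000674) and by 0.49 in Trim71KO_empty (SE 0.12, adjusted p 0.00481). In Ago2KO_empty the value was -0.32 and was not called (SE 0.12, adjusted p 0.0544), but DESeq2 called it, at an adjusted p of 0.0402. Without the library labelled Ago2KO_empty 2, the one with Ago2 near the control, Myc fell by 0.48 in that group (SE 0.11, adjusted p 0.0048). The labels give no cause for the difference in Myc between the experiments, whose controls are untransfected in one and transfected in the other.

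Counted over all 10 members, 3 were called higher and 5 lower in Ago2KO, where 10.2% and 7.78% of all 21210 genes tested were called higher and lower. In Trim71KO 1 was higher and 4 were lower, against 16.9% and 15.6% of all genes. Trim71KO against Ago2KO had 2 higher and 2 lower, against 17.1% in each direction. With T6B_WT 1 was higher and 2 were lower, against 9.29% and 6.69% of 21505 genes. Trim71KO_empty had none higher and 7 lower, against 14.4% and 13.4%, and Ago2KO_empty 1 higher and 3 lower, against 16.4% and 12.4%. Without the library labelled Ago2KO_empty 2, 6 members and 5182 genes were called in that group, against 4 and 6201 with it. Over the libraries left out in turn, its member count ran from 3 to 6. Trim71KO_empty against Ago2KO_empty had 3 lower and none higher, against 14.7% higher and 16.9% lower. Beside the T6B_WT count, fitting that pair of groups alone called 6 members and 5632 genes. The spread of the other groups of Experiment 2 does not enter that fit, and the cause of its higher counts was not tested.

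The glycolysis members are abundant in these cells. With gene length divided out, and averaged over the 21 libraries, Pkm measured 357 RPKM (CPM per kilobase of the length in the table), Aldoa 309, Ldha 172, Eno1 117, Pgk1 86.4, Slc2a1 60.9, Pdk1 33.3 and Hk2 32.4. Myc followed at 9.29 RPKM and Mbd2 at 6.37. Pdk1 and Hk2 were the closest neighbours in this order, and their order differed between groups. The 8 glycolysis genes together took 5770 to 6080 CPM in W, 5337 to 5525 in Trim71KO and 5342 to 5453 in Ago2KO. In Experiment 2 they took 4610 to 4871 CPM in T6B_MUT, 4028 to 4454 in T6B_WT, 3229 to 3993 in Trim71KO_empty and 3446 to 4197 in Ago2KO_empty. In both experiments no library of another group reached the lowest control library.

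Slc2a1 encodes GLUT1, the transporter through which glucose enters the cell, and it rose in both knockouts of Experiment 1. Its locus is chr4:119108711-119137983 on the plus strand of GRCm38 and overlaps Mir1957a on the same strand and Gm12867 and Gm12868 on the other strand. It measured 208, 225 and 216 CPM in W, 255, 251 and 258 in Trim71KO, and 279, 264 and 250 in Ago2KO, with both knockouts wholly above W. Slc2a1 rose by 0.23 in Trim71KO (SE 0.05, adjusted p 0.00216) and by 0.29 in Ago2KO (SE 0.05, adjusted p 0.000952). In Experiment 2 it measured 179, 183 and 183 CPM in T6B_MUT and 181, 183 and 164 in T6B_WT. It measured 199, 202 and 209 CPM in Trim71KO_empty and 177, 224 and 188 in Ago2KO_empty. None of these was called, with log2 fold changes of -0.05 for T6B_WT (SE 0.08), 0.16 for Trim71KO_empty (SE 0.08) and 0.11 for Ago2KO_empty (SE 0.08). The 0.11 rests on the library labelled Ago2KO_empty 2, without which the value was -0.01 (SE 0.07).

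Hk2 encodes hexokinase 2, which traps glucose in the cell by phosphorylating it. The gene lies at chr6:82725025-82774454 on the minus strand of GRCm38 and overlaps Gm17034 on the other strand. It was not called in any of the 7 comparisons and ranged from 166 to 234 CPM over all libraries. Its log2 fold changes against control ran from -0.13 with T6B_WT (SE 0.06) to 0.06 in Ago2KO (SE 0.05). The value in Ago2KO_empty was -0.12 (adjusted p 0.138), and it passed the threshold, at -0.19 (adjusted p 0.0301), only when the library labelled Ago2KO_empty 2 was left out, among the libraries left out in turn.

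Aldoa encodes aldolase A, which splits fructose bisphosphate into triose phosphates, and it was low with loss of Trim71 and not called with loss of Ago2 or with T6B_WT. Its locus is chr7:126795234-126800751 on the minus strand of GRCm38 and overlaps Fam57b on the other strand. Aldoa shares 6.4% of its 50-base words with other genes. In Experiment 1 it measured 1000 to 1098 CPM in W, 828, 831 and 880 in Trim71KO, and 1087, 1014 and 1033 in Ago2KO. Aldoa fell by 0.32 in Trim71KO (SE 0.05, adjusted p 0.000104), and Trim71KO was also below Ago2KO (log2 fold change -0.30, SE 0.05, adjusted p 0.000126). Experiment 2 had 931, 926 and 880 CPM in T6B_MUT, 937, 1017 and 895 in T6B_WT, 595, 614 and 694 in Trim71KO_empty, and 770, 867 and 926 in Ago2KO_empty. The Trim71KO_empty libraries lay below all others. Aldoa fell by 0.52 there (SE 0.08, adjusted p 6.54e-05), and was also lower than in Ago2KO_empty (log2 fold change -0.43, SE 0.08, adjusted p 0.000364). The values in Ago2KO, T6B_WT and Ago2KO_empty were -0.01, 0.06 and -0.09, with SEs of 0.05, 0.08 and 0.08.

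Pgk1 encodes phosphoglycerate kinase 1, the first step of glycolysis that yields ATP. The gene lies at chrX:106187100-106203699 on the plus strand of GRCm38. It measured 247, 245 and 244 CPM in W, 224, 223 and 207 in Trim71KO, and 198, 205 and 202 in Ago2KO, without overlap with the control. It fell by 0.17 in Trim71KO (SE 0.04, adjusted p 0.00908) and by 0.28 in Ago2KO (SE 0.04, adjusted p 0.000509). In Experiment 2 it measured 218, 215 and 212 CPM in T6B_MUT, 159, 183 and 172 in T6B_WT, 127, 160 and 169 in Trim71KO_empty, and 130, 152 and 177 in Ago2KO_empty. Every library of the other groups lay below T6B_MUT. Pgk1 fell by 0.50 in Trim71KO_empty (SE 0.11, adjusted p 0.00358) and by 0.49 in Ago2KO_empty (SE 0.11, adjusted p 0.00477). The value with T6B_WT was -0.33 and was not called (SE 0.11, adjusted p 0.0584), but DESeq2 called it, at an adjusted p of 0.0315. Of the 50-base words in Pgk1 transcripts, 53.9% also occur in another gene, nearly all in the retrogene Pgk1-rs7, so reads could be split between these rows. The row of Pgk1-rs7 had log2 fold changes of -0.14 in Trim71KO, -0.25 in Ago2KO, -0.48 in Trim71KO_empty and -0.44 in Ago2KO_empty.

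Eno1 encodes enolase 1, which makes phosphoenolpyruvate. Its locus is chr4:150236721-150248879 on the plus strand of GRCm38. It measured 819, 867 and 871 CPM in W, 796, 810 and 822 in Trim71KO, and 760, 745 and 711 in Ago2KO. Ago2KO lay below W, and Trim71KO overlapped it. Eno1 fell by 0.21 in Ago2KO (SE 0.04, adjusted p 0.00307), and the value in Trim71KO was -0.08 (SE 0.04, adjusted p 0.195). Trim71KO was higher than Ago2KO by 0.13 (SE 0.04, adjusted p 0.0244), a call lost without Trim71KO 2 (adjusted p 0.0779), Trim71KO 3 (0.0614) or Ago2KO 3 (0.101). Levels in Experiment 2 were 581, 552 and 551 CPM in T6B_MUT, 500, 542 and 517 in T6B_WT, 393, 450 and 526 in Trim71KO_empty, and 429, 484 and 494 in Ago2KO_empty. It fell by 0.30 in Trim71KO_empty (SE 0.09, adjusted p 0.0145) and by 0.26 in Ago2KO_empty (SE 0.09, adjusted p 0.0306). The first call was lost without Trim71KO_empty 1 (value -0.21, adjusted p 0.0988) or T6B_MUT 1 (-0.28, 0.0645). The second was lost without T6B_MUT 1 (-0.25, 0.0917), T6B_MUT 2 (-0.29, 0.0506) or Ago2KO_empty 1 (-0.22, 0.122). Eno1 shares 26.0% of its 50-base words with other genes, chiefly Eno1b.

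Pkm encodes pyruvate kinase M, the last step of glycolysis, and it was the one glycolysis member called lower with T6B_WT. The gene lies at chr9:59656368-59679375 on the plus strand of GRCm38. In Experiment 1 it measured 2128, 2204 and 2254 CPM in W, 2116, 2045 and 2149 in Trim71KO, and 1865, 1836 and 1860 in Ago2KO. It fell by 0.24 in Ago2KO (SE 0.04, adjusted p 0.000387), was at -0.06 in Trim71KO (SE 0.04, adjusted p 0.231), and was higher in Trim71KO than in Ago2KO by 0.18 (SE 0.04, adjusted p 0.00152). The last of these calls was lost with all 21 libraries in the fit (adjusted p 0.0732). In Experiment 2 it measured 1979, 1941 and 1828 CPM in T6B_MUT, 1525, 1635 and 1418 in T6B_WT, 1364, 1556 and 1677 in Trim71KO_empty, and 1230, 1319 and 1551 in Ago2KO_empty. All 9 libraries of the other groups lay below all of T6B_MUT. Pkm fell by 0.33 with T6B_WT (SE 0.09, adjusted p 0.0161), by 0.32 in Trim71KO_empty (SE 0.09, adjusted p 0.0109) and by 0.49 in Ago2KO_empty (SE 0.09, adjusted p 0.00059). The call with T6B_WT was lost without T6B_WT 1 (adjusted p 0.0508), T6B_WT 3 (0.0794), T6B_MUT 1 (0.0726) or T6B_MUT 2 (0.0566). That in Trim71KO_empty was lost without T6B_MUT 1 (0.0537) or Trim71KO_empty 1 (0.0812). Pkm shares 25.8% of its 50-base words with other genes, 12.1% with Gm49759, which overlaps it on the same strand. The row gives no split between the isoforms PKM1 and PKM2, and of 5 listed regulators of that splicing choice none was called in Trim71KO, Ago2KO or T6B_WT. In Trim71KO_empty Rbm4 was called higher and Hnrnpa1 lower, in Ago2KO_empty Rbm4 was called higher, and Ptbp1 and Rbm4 were higher in Trim71KO than in Ago2KO. These 3 regulators are named after their values were seen, and their calls were not rerun with libraries left out.

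**Figure D2:**
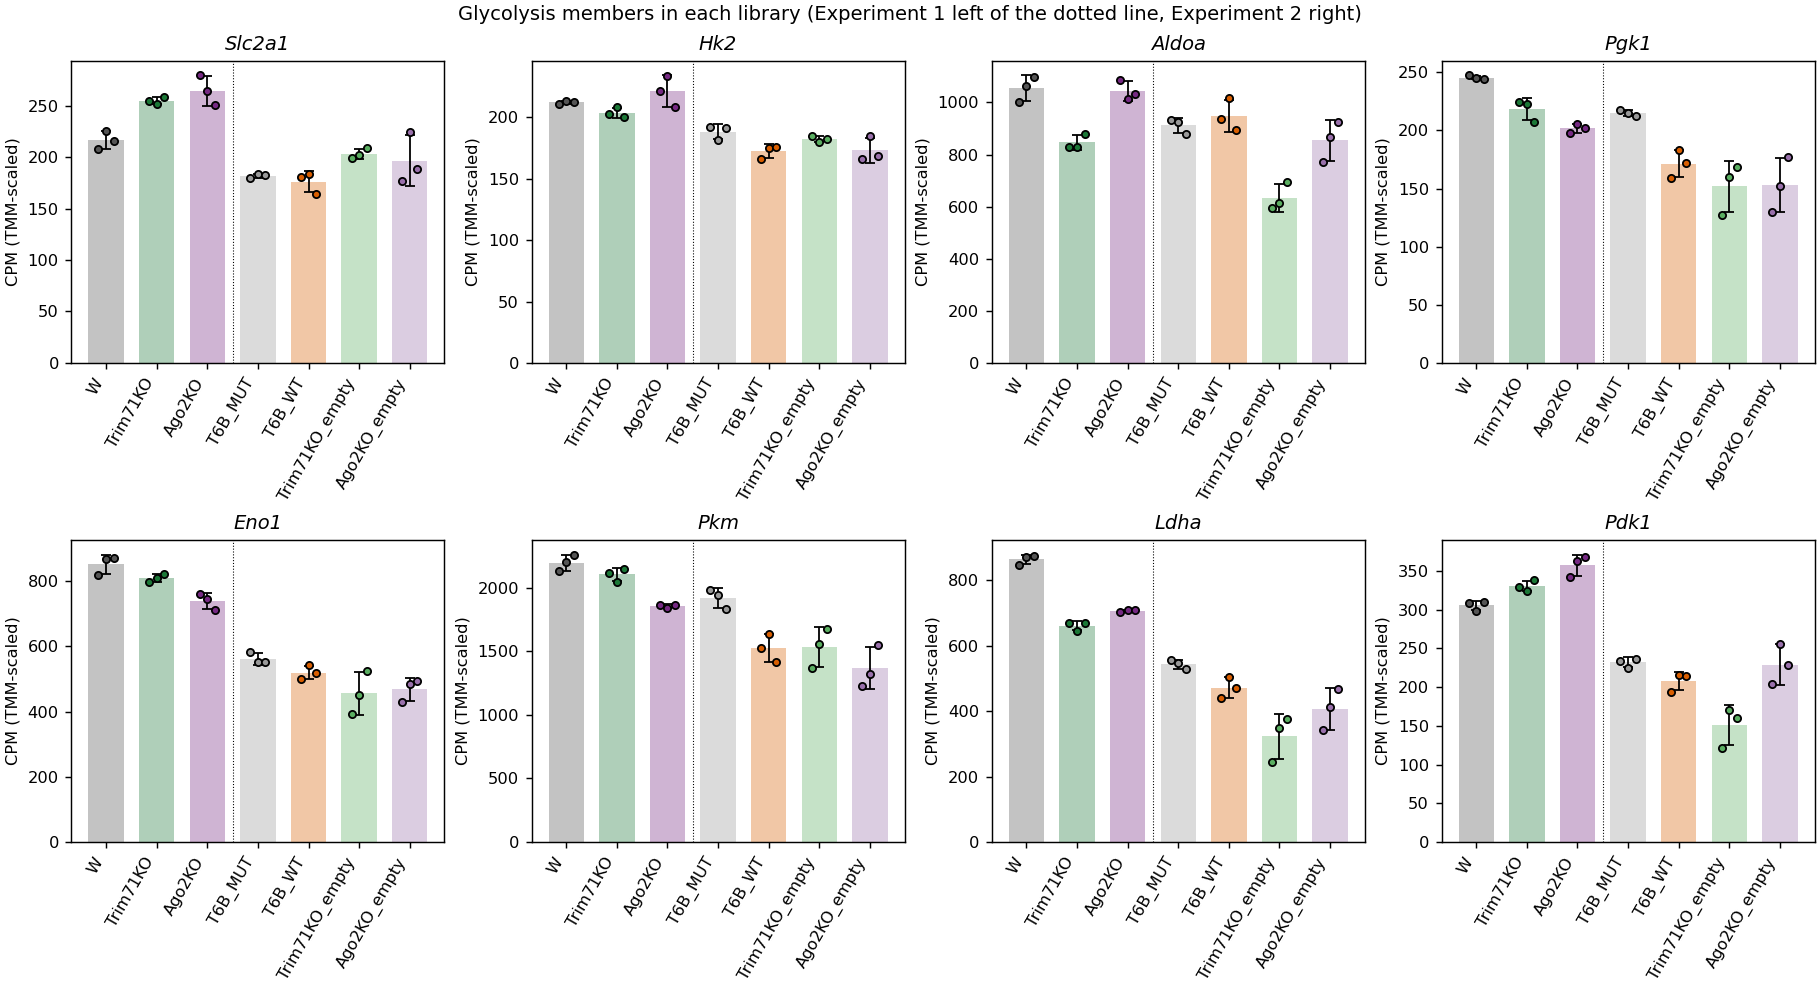
The 8 glycolysis members in CPM on TMM-scaled library sizes (vertical axes, each from 0) in the 7 groups (horizontal axes). Points are libraries, bars the mean and error bars the SD of 3 libraries; Ldha is below its control in all 5 groups, while Slc2a1 and Pdk1 are above it in both knockouts of Experiment 1.

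Ldha and Pdk1 act on pyruvate after glycolysis. Ldha encodes lactate dehydrogenase A, which turns pyruvate into lactate. Its locus is chr7:46841475-46855627 on the plus strand of GRCm38. Ldha shares 9.0% of its 50-base words with other genes, 167 in number. It measured 847, 870 and 875 CPM in W, 669, 644 and 670 in Trim71KO, and 702, 709 and 709 in Ago2KO, so that each knockout lay far below W for its spread. It fell by 0.39 in Trim71KO (SE 0.04, adjusted p 2.66e-06) and by 0.29 in Ago2KO (SE 0.04, adjusted p 0.0001). The corresponding levels in Experiment 2 were 555, 547 and 529 CPM in T6B_MUT, 441, 503 and 471 in T6B_WT, 244, 348 and 376 in Trim71KO_empty, and 341, 413 and 466 in Ago2KO_empty. The groups did not overlap with T6B_MUT, but the libraries within the edited groups were far apart. Ldha fell by 0.75 in Trim71KO_empty (SE 0.15, adjusted p 0.00326), and by 0.59 without Trim71KO_empty 1, the lowest library (SE 0.10, adjusted p 0.000701). In Ago2KO_empty the value was -0.42 (SE 0.15, adjusted p 0.0563), and DESeq2 called it, at an adjusted p of 0.00702. Without Ago2KO_empty 3 it was -0.55 and called (adjusted p 0.0215), and without the library labelled Ago2KO_empty 2 it was -0.45 (adjusted p 0.127). With T6B_WT it was -0.21 (SE 0.15, adjusted p 0.419). Ldha is the other member with a match to the seed, and it was not called higher in any comparison.

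Pdk1 encodes pyruvate dehydrogenase kinase 1, which blocks the entry of pyruvate into mitochondrial oxidation. The gene lies at chr2:71873224-71903858 on the plus strand of GRCm38. It measured 309, 299 and 309 CPM in W, 330, 325 and 338 in Trim71KO, and 342, 363 and 368 in Ago2KO. It rose by 0.22 in Ago2KO (SE 0.04, adjusted p 0.00224), and the value in Trim71KO was 0.11 (SE 0.04, adjusted p 0.0612). In the transfected cells of Experiment 2 it measured 234, 225 and 237 CPM in T6B_MUT, 194, 216 and 214 in T6B_WT, 122, 170 and 160 in Trim71KO_empty, and 204, 256 and 228 in Ago2KO_empty. The Trim71KO_empty libraries lay below all others. Pdk1 fell by 0.62 there (SE 0.11, adjusted p 0.000493), and was also lower than in Ago2KO_empty (log2 fold change -0.61, SE 0.11, adjusted p 0.000502). The values with T6B_WT and in Ago2KO_empty were -0.16 and -0.02, with SEs of 0.11 and adjusted p of 0.371 and 0.918.

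**Figure D3:**
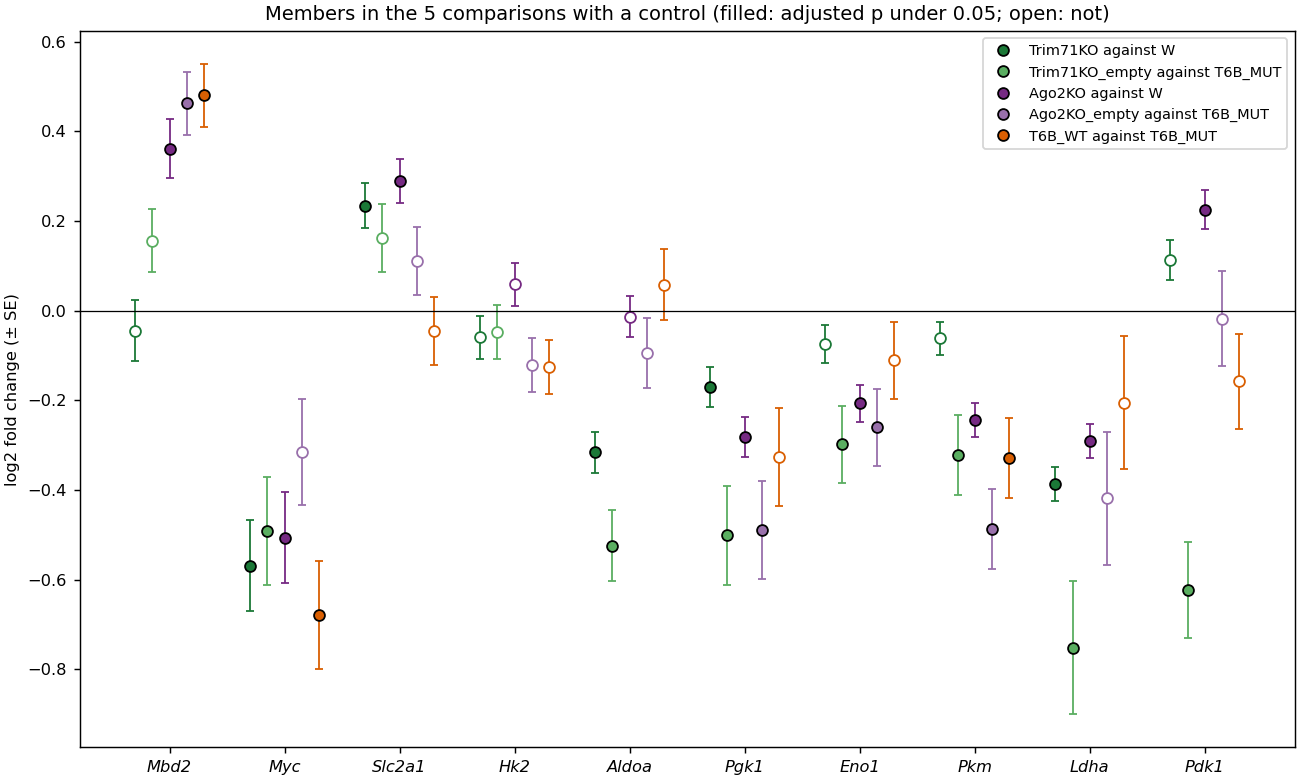
Log2 fold change against the control of the same experiment (vertical axis) for the 10 members (horizontal axis) in 5 comparisons, with bars for 1 SE. Filled points had an adjusted p under 0.05 by the edgeR quasi-likelihood test; Mbd2 is positive in Ago2KO, Ago2KO_empty and T6B_WT, Myc is below 0 in all 5, and Pdk1 has opposite signs in the Trim71KO and Trim71KO_empty comparisons.

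The differences between the experiments were tested in a fit of all 21 libraries. For loss of Trim71, the fold change in Experiment 2 minus that in Experiment 1 was called for 1 member, against 10.1% of 22258 genes. That member was Pdk1, at -0.73 (SE 0.12, adjusted p 0.000253), and at -0.60 without Trim71KO_empty 1 (SE 0.10, adjusted p 0.000221). For loss of Ago2 no member was called, against 2.13% of genes, but Ago2 itself was not called lower in Ago2KO_empty. Without the library labelled Ago2KO_empty 2 no member was called either. With all libraries the differences for loss of Ago2 were 0.09 for Mbd2 (SE 0.09) and 0.18 for Myc (SE 0.17). The value for Myc was 0.05 without the library labelled Ago2KO_empty 2 (SE 0.16). Over the alternatives that of Slc2a1 ran from -0.29 to -0.17, with a lowest adjusted p of 0.0703. The effect of T6B_WT minus that of Ago2 loss in Experiment 1 was called for no member, against 3.16% of genes. It was 0.12 for Mbd2 (SE 0.09, adjusted p 0.651), -0.17 for Myc (SE 0.17, adjusted p 0.75) and -0.33 for Slc2a1 (SE 0.10, adjusted p 0.0533). At unadjusted p under 0.05 the Trim71 difference included 7 members (Mbd2, Pkm, Ldha, Pgk1, Pdk1, Aldoa and Eno1), the Ago2 difference Pkm, Hk2 and Pdk1, and the T6B difference Hk2, Slc2a1 and Pdk1. After adjustment only Pdk1 in the Trim71 difference remained. The share of all genes at the unadjusted threshold was not computed, so these counts are no result about the members. For every member, all 3 differences set a comparison with a transfected control against one with an untransfected control.

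The lists of further genes that follow are to be read against the share of all genes called higher and lower. These shares were 16.9% and 15.6% in Trim71KO, 10.2% and 7.78% in Ago2KO, 9.29% and 6.69% with T6B_WT, 14.4% and 13.4% in Trim71KO_empty, and 16.4% and 12.4% in Ago2KO_empty. Many of the counts below lie near them and are then no result about the list.

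Genes known to respond to MYC, such as those of ribosome and polyamine production, were fewer on the high side than on the low side in each comparison with a control. Of 20 such genes, 7 fell and 2 rose in Trim71KO, 10 fell and 2 rose in Ago2KO, and 6 fell and 1 rose with T6B_WT. In Trim71KO_empty 7 fell and none rose, and in Ago2KO_empty 13 fell and 2 rose, also without the library labelled Ago2KO_empty 2. Srm, the spermidine synthase gene, fell in all 5 comparisons, by 0.35 in Trim71KO, 0.48 in Ago2KO, 0.48 with T6B_WT, 0.37 in Trim71KO_empty and 0.47 in Ago2KO_empty. Odc1, whose product starts polyamine synthesis, fell by 0.32 in Ago2KO, 0.52 with T6B_WT, 0.23 in Trim71KO_empty and 0.47 in Ago2KO_empty. Its call in Trim71KO_empty was lost without Trim71KO_empty 1 or 2 or any T6B_MUT library (adjusted p from 0.0535 to 0.162). Ccnd2, the cyclin D2 gene, went the other way and rose by 0.54 in Trim71KO (SE 0.08, adjusted p 0.000144), 0.85 in Ago2KO (SE 0.08, adjusted p 5.86e-06), 1.54 with T6B_WT (SE 0.33, adjusted p 0.0128) and 1.47 in Ago2KO_empty (SE 0.33, adjusted p 0.0104). The list's median log2 fold change was -0.08 in Trim71KO, -0.21 in Ago2KO, -0.10 with T6B_WT, -0.16 in Trim71KO_empty and -0.24 in Ago2KO_empty, where the median of all genes lay between -0.003 and 0.03. The count in Trim71KO went down to 3 without W 3 or Trim71KO 1 and to 4 without W 2 or Trim71KO 2. Those with T6B_WT and in Trim71KO_empty each went down to 3 without T6B_MUT 1. The first was also 3 without T6B_MUT 2, and the second was 3 without Trim71KO_empty 1 and 4 without T6B_MUT 2. The count of 13 went down to 8 without Ago2KO_empty 1. The call of Ccnd2 with T6B_WT was lost without T6B_MUT 1 (adjusted p 0.0514) or T6B_MUT 3 (0.0536). The 2 genes that rose in Ago2KO became 1 without W 1, W 2, W 3, Ago2KO 1 or Ago2KO 2, and those in Ago2KO_empty became 1 without T6B_MUT 3.

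Mycn, the paralog of Myc that is the more abundant of the pair here, fell with Myc in both Trim71-/- groups and was not called lower in the Ago2-/- and T6B_WT groups. It measured 136 to 162 CPM in W, 102 to 132 in Trim71KO and 140 to 152 in Ago2KO. In Experiment 2 it measured 44.3 to 47.2 CPM in T6B_MUT and 62.4 to 66.7 in T6B_WT, and like Myc it was at a lower level than in Experiment 1. Mycn rose by 0.47 with T6B_WT (SE 0.08, adjusted p 0.000255), where Myc fell, and by 0.46 in Ago2KO_empty (SE 0.08, adjusted p 0.000222). It fell by 0.37 in Trim71KO (SE 0.09, adjusted p 0.00648) and by 0.40 in Trim71KO_empty (SE 0.08, adjusted p 0.000661), and was at -0.04 in Ago2KO (SE 0.09, adjusted p 0.81). The other genes of the Myc network include the MXD proteins, which compete with MYC for MAX. Mxd4 rose by 0.50 in Ago2KO, 0.47 with T6B_WT, 0.81 in Trim71KO_empty and 0.73 in Ago2KO_empty. Of the 17 network genes, 4 rose and 1 fell in Ago2KO, 3 rose and 1 fell with T6B_WT, and 6 rose and 1 fell in Ago2KO_empty. In Trim71KO 1 rose and 7 fell, and in Trim71KO_empty 3 rose and 4 fell. Without Ago2KO 1 the call of Mxd4 in Ago2KO was lost (adjusted p 0.0538) and 2 network genes rose. Without any 1 of the 3 T6B_MUT libraries 3 genes rose in Ago2KO_empty. The genes that fell in Trim71KO_empty numbered 2 without T6B_MUT 2, T6B_MUT 3 or Trim71KO_empty 1. The 1 that fell in Ago2KO was lost without any Ago2KO library, W 2 or W 3, and the 1 with T6B_WT without T6B_WT 1, T6B_WT 3, T6B_MUT 1 or T6B_MUT 2. In Trim71KO 2 rose without W 1 or Trim71KO 3.

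The genes that work beside Mbd2 showed no such single direction. Of 19 genes of the MBD family and the NuRD complex, 1 rose and 5 fell in Ago2KO, 1 rose and 1 fell with T6B_WT, and 3 rose and 6 fell in Ago2KO_empty. In Trim71KO 4 rose and 5 fell, and in Trim71KO_empty 3 rose and 5 fell. Chd3, which encodes a NuRD remodeler, rose by 1.10 in Trim71KO (SE 0.07, adjusted p 2.51e-08), 1.17 in Trim71KO_empty (SE 0.08, adjusted p 1.06e-08), 0.48 in Ago2KO and 0.41 with T6B_WT. Mbd3, which takes the place of MBD2 in a second form of NuRD, fell by 0.48 in Trim71KO (SE 0.08, adjusted p 0.000308). The genes of this list that rose in Ago2KO_empty numbered 1 without T6B_MUT 1, T6B_MUT 2 or the library labelled Ago2KO_empty 2, and 5 without Ago2KO_empty 3. Those that fell in Trim71KO numbered 3 without Trim71KO 1, and 2 rose in Ago2KO without W 1 or Ago2KO 1.

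The rest of the glycolysis pathway moved in both directions. Of 25 further genes in the table, 3 rose and 7 fell in Trim71KO, and 2 rose and 5 fell in Ago2KO. Of the 24 tested in Experiment 2, 3 rose and none fell with T6B_WT, 4 rose and 10 fell in Trim71KO_empty, and 2 rose and 5 fell in Ago2KO_empty. Ldhb, which encodes the other main subunit of lactate dehydrogenase, rose by 0.37 in Ago2KO (SE 0.05, adjusted p 0.000186) and by 0.45 with T6B_WT (SE 0.06, adjusted p 9.52e-05), unlike Ldha. Slc16a3, a lactate exporter, fell by 0.61 in Trim71KO and 0.48 in Ago2KO. Pfkp, a phosphofructokinase gene, rose by 0.28 in Ago2KO, 0.76 in Trim71KO_empty and 0.69 in Ago2KO_empty. Eno3, a muscle enolase gene, fell by 1.03 in Trim71KO, 1.14 in Trim71KO_empty and 0.68 in Ago2KO_empty. The median log2 fold change of these genes was -0.11 in Trim71KO, -0.03 in Ago2KO, -0.02 with T6B_WT, -0.16 in Trim71KO_empty and -0.08 in Ago2KO_empty. Without W 2, W 3 or Ago2KO 2 the genes that fell in Ago2KO numbered 3, and in Ago2KO_empty they numbered 3 without T6B_MUT 1, T6B_MUT 2 or Ago2KO_empty 1.

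**Figure D4:**
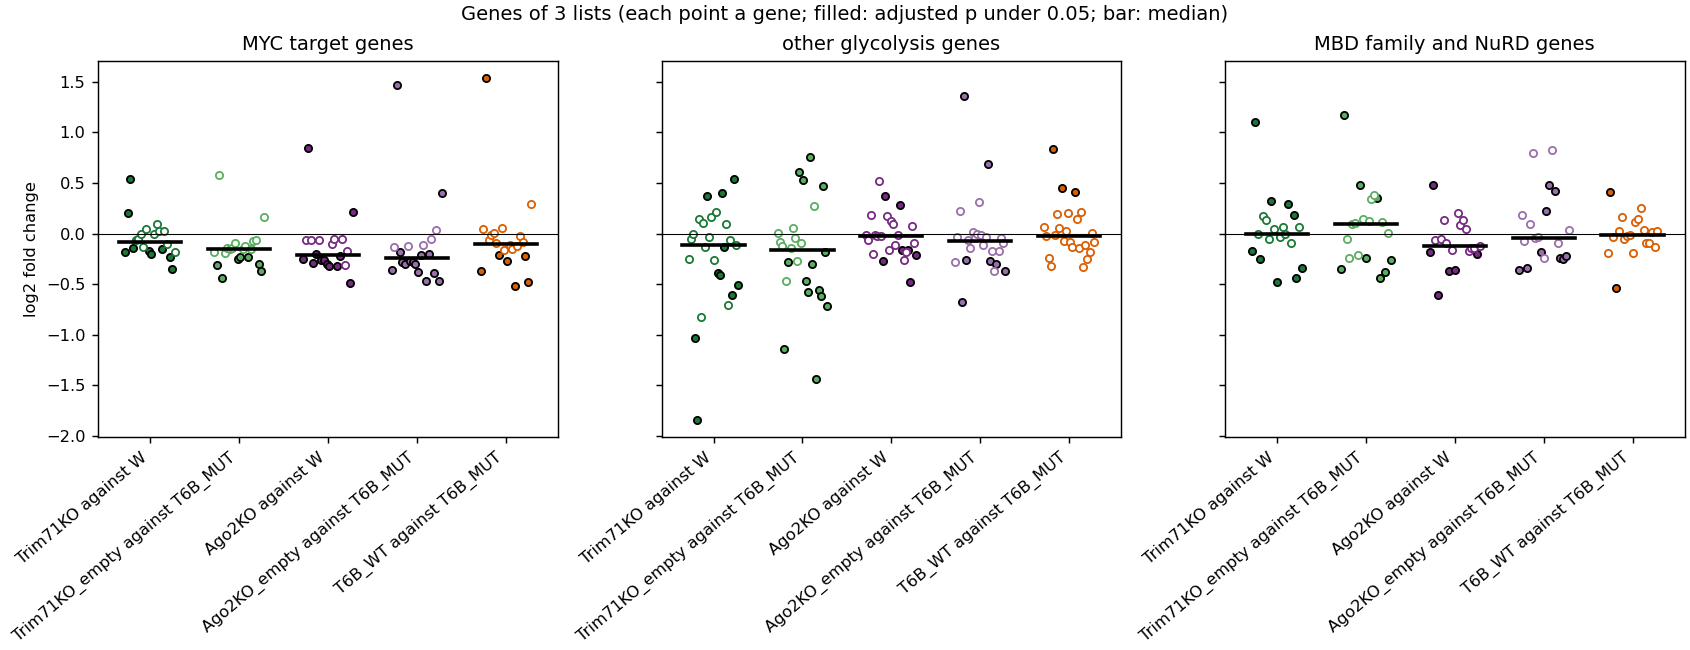
Log2 fold changes (vertical axis) of the genes of 3 lists in 5 comparisons (horizontal axes). Each point is a gene, filled where the adjusted p was under 0.05, and the bar is the list's median; 10 of 20 MYC target genes are called lower in Ago2KO, and the other glycolysis genes spread to both sides.

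Downstream of pyruvate, the regulators of pyruvate dehydrogenase and the citric acid cycle were also read. Of 14 genes of pyruvate dehydrogenase and pyruvate import, 4 rose and 2 fell in Trim71KO, 2 rose and 1 fell in Ago2KO, and 1 rose with T6B_WT. In Trim71KO_empty 4 rose and 3 fell, and in Ago2KO_empty 2 rose and 1 fell. Pdk3, a second kinase of the same enzyme, fell by 0.58 in Trim71KO_empty (SE 0.08, adjusted p 2.25e-05), where Pdk1 fell, and Pdp1, a phosphatase that opposes these kinases, fell there by 0.48. Of 16 genes of the citric acid cycle, 5 rose and 1 fell in Trim71KO, 1 rose and 3 fell in Ago2KO, and 2 rose with T6B_WT. In Trim71KO_empty 1 fell, and in Ago2KO_empty 2 rose and 6 fell. Of the pyruvate genes that fell, those in Trim71KO became 1 without W 2 or Trim71KO 2, and the 1 in Ago2KO was lost without W 2, W 3 or Ago2KO 2. The 1 that rose with T6B_WT, Pdk3, was lost without T6B_WT 2 or T6B_MUT 2. In Ago2KO_empty the 2 that rose became 1 without T6B_MUT 2 or 3, Ago2KO_empty 1 or the library labelled Ago2KO_empty 2, and the 1 that fell was lost without T6B_MUT 1 or 3, Ago2KO_empty 1 or 2. Of the citric acid cycle genes, the 2 that rose in Ago2KO_empty became 1 or 0 without any 1 of the 6 libraries. The 1 that fell in Trim71KO was lost without W 2, W 3, Trim71KO 1 or Trim71KO 2 and became 2 without Trim71KO 3, and the 1 in Trim71KO_empty was lost without T6B_MUT 1 or 3, Trim71KO_empty 1 or 2. Of the larger counts, the 6 citric acid cycle genes that fell in Ago2KO_empty became 2 without Ago2KO_empty 1. The 4 pyruvate genes that rose in Trim71KO_empty became 2 without Trim71KO_empty 2.

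Several members are also known targets of the hypoxia factor HIF1, so its pathway was counted. Of 17 genes, 3 rose and 6 fell in Trim71KO and 3 rose and 2 fell in Ago2KO. Of the 16 tested in Experiment 2, 2 rose and 1 fell with T6B_WT, 2 rose and 1 fell in Trim71KO_empty, and 3 rose and none fell in Ago2KO_empty. P4ha2, a collagen prolyl hydroxylase gene, fell by 1.08 in Trim71KO, 0.86 in Ago2KO and 0.39 in Trim71KO_empty. Bnip3, a mitophagy gene, fell by 0.78 in Trim71KO, and Vegfa, a growth factor gene, rose by 0.60 in Trim71KO_empty and fell by 0.42 with T6B_WT. The 2 that rose with T6B_WT became 1 or 0 without any 1 of the 6 libraries compared. The 3 that rose in Ago2KO_empty became 5 without Ago2KO_empty 3, and 3 fell in Trim71KO_empty without Trim71KO_empty 3.

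Genes with the pattern most like the members were ranked over the 21 libraries by Pearson's coefficient, with log2 CPM centred on the mean of each experiment, among 12881 genes (12872 for the glycolysis sum). The libraries share their controls and depths, so the coefficients are descriptions. For Mbd2 the top genes were Ccpg1, Cast, Gm44503, Slc19a2 and Hbp1, with coefficients of 0.95 each and Spearman coefficients from 0.86 to 0.91. For Myc they were Faap24, Nphs1, Ydjc, Enc1 and Noct, from 0.85 to 0.91. For the sum of the 8 glycolysis members they were Pgam1, Nme1, Gm12184, Gm20390 and Cdk2ap1, from 0.95 to 0.97. Pgam1, the glycolytic phosphoglycerate mutase, ranked first there and fell by 0.13 in Trim71KO, 0.16 in Ago2KO, 0.30 in Trim71KO_empty and 0.27 in Ago2KO_empty. Its value with T6B_WT was -0.14 (SE 0.07, adjusted p 0.211). Its calls in both knockouts of Experiment 1 were lost without W 2 or W 3. That in Trim71KO was also lost without Trim71KO 1 or 2, that in Ago2KO without Ago2KO 2, and that in Ago2KO_empty without Ago2KO_empty 1 (adjusted p from 0.0593 to 0.109).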

How the data were processed

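Total RNA of 21 libraries was sequenced after stranded library preparation, per the labels' protocols. The submitters' processing notes name bcl2fastq 2.17, STAR 2.7.3a and GRCm38/mm10. The annotation and strand setting are not given in the sources used here. Per the file headers, the authors deposited raw counts per gene, RPKM values and a gene length in bases. Raw counts entered every test. The deposited RPKM values and length served for the order of levels. No row named anything but a gene.

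Each experiment was fitted alone with edgeR 4.0.16 in R 4.3.3 (filterByExpr with a minimum count of 10, TMM, robust quasi-likelihood F test, Benjamini-Hochberg adjustment, threshold 0.05). SE is the log2 fold change divided by the root of F. Differences between experiments used all 21 libraries. Levels behind the likeness ranking are log2(CPM + 0.5) of genes with a mean of at least 2. Scripts were tested on simulated counts. Libraries of 29561125 to 57872324 counts put every member at 322 counts or more.

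The members and lists were chosen with earlier results of these data known. All members are named, and from each list at most the 3 called genes with the largest change per comparison. The 2 promoters shown, Mycn outside T6B_WT, Pgam1 and the genes that share reads were chosen after their values were seen. Alternatives were DESeq2 1.42.0, other scaling factors, filters and thresholds, other sets of libraries, a replicate block and leaving out each library. Replicates of a group differed beyond counting noise. Same-numbered libraries of different groups had correlations of their deviations from -0.64 to 0.64 over 27 pairs, with 10 over 0.1, so numbers were not taken as pairs. Coordinates and UTRs are from GENCODE M21 (GRCm38), microRNA and promoter sequences from RefSeq (GRCm38.p6).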

Additional observations from a re-analysis of the deposited data

Results flagged for a closer look

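Pdk1 stood out because its change with loss of Trim71 differed between the experiments by a test of the difference itself. The fold change in Trim71KO_empty against T6B_MUT minus that in Trim71KO against W was -0.73 on the log2 scale (SE 0.12, adjusted p 0.000253 by the edgeR quasi-likelihood test over 22258 genes). Pdk1 was lower than the control in 3 of 3 Trim71KO_empty libraries and higher than the control in 3 of 3 Trim71KO libraries. The empty plasmid and the transfected control are part of the first contrast and not of the second, so genotype, plasmid and experiment cannot be told apart in this difference.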

How the results depend on the processing

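Of the 34 member results that were called within an experiment, 25 stayed called in the same direction under every alternative run, and 9 lost the call in at least 1. None of the 34 changed direction. Over all members 1190 alternative values were computed, of which 1116 kept direction and side of the threshold, 24 lost and 34 gained a call, and 16 changed sign, all 16 in values that were not called. At an adjusted p under 0.01 the genes called were 4555 in Trim71KO, 2147 in Ago2KO, 1785 with T6B_WT, 3610 in Trim71KO_empty, 3292 in Ago2KO_empty and 4371 for Trim71KO_empty against Ago2KO_empty. With all 21 libraries in the fit, 2 members were called for Trim71KO against Ago2KO and 7 in Ago2KO_empty, against 6815 and 7074 of 22258 genes. In that fit Pgk1 in Trim71KO and Ldha and Pdk1 in Ago2KO lost their calls (adjusted p 0.155, 0.103 and 0.0981). Pkm (adjusted p 0.0732) and Eno1 lost theirs in Trim71KO against Ago2KO. With only the 2 groups in the fit, 6 members and 5632 genes were called for T6B_WT. Leaving out each library gave 2045 to 2497 genes for T6B_WT and 3894 to 8083 for Ago2KO_empty. The lowest of these came without T6B_MUT 1 (2045 and 3894), and Ago2KO_empty had 3923 without Ago2KO_empty 1.

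Sign changes of uncalled values were as follows. Pgk1 in Trim71KO_empty against Ago2KO_empty was 0.0054 with DESeq2, 0.0054 with RLE factors, 0.0084 with upper-quartile factors, 0.0045 with no filter, 1.28e-05 with all 21 libraries, and -0.10 to 0.13 when single libraries were left out. Leaving out each library in turn gave -0.051 to 0.015 for Aldoa in Ago2KO, -0.18 to 0.022 for Myc in Trim71KO against Ago2KO, -0.0021 to 0.087 for Aldoa with T6B_WT, -0.14 to 0.078 for Eno1 and -0.0035 to 0.17 for Slc2a1 in Trim71KO_empty against Ago2KO_empty, and -0.12 to 0.039 for Pdk1 and -0.013 to 0.16 for Slc2a1 in Ago2KO_empty. The cause was not tested.

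With the replicate block, members called numbered 5 in Trim71KO, 8 in Ago2KO, 4 with T6B_WT, 7 in Trim71KO_empty and 6 in Ago2KO_empty. Of all genes, the same fits called 6886 and 3831 of 21210 in Trim71KO and Ago2KO. They called 3247, 5801 and 5976 of 21505 with T6B_WT, in Trim71KO_empty and in Ago2KO_empty. The block added Pgk1 with T6B_WT (adjusted p 0.0123), Myc (0.0373) and Ldha (0.00817) in Ago2KO_empty and Ldha in Trim71KO_empty against Ago2KO_empty (0.0254), and removed no call. The labels do not say whether equal numbers mark paired samples, and correlations over 3 libraries a group cannot settle it.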
